A study of Mus musculus with 12 samples.

Results

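The genes described here are textbook targets of p53, measured on expression arrays of cultured mouse aortic endothelial cells labelled as lacking the transcription factors Ets1, Ets2 or both. They were the probe sets of the deposited table whose annotated symbol was one of 8 listed names. Of these, 7 genes were on the table with 13 of its 20523 probe sets: Cdkn1a, Btg2, Mdm2 and Trp53inp1 with 2 each, Ccng1 with 3, and Phlda3 and Pmaip1 with 1 each. The eighth, Gdf15, was not analysed here. All 7 genes and 13 probe sets exceeded a log2 value of 6.5, taken here as the dim end of the arrays, in at least 2 arrays.

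The cells came from mice aged 4 weeks and fell into 4 groups. Wild-type cells (Ets1+/+; Ets2+/+) and Ets1 null cells (Ets1-/-; Ets2fl/fl) had received a lentivirus that carries egfp, a green fluorescent reporter. Ets2 null cells (Ets1+/+; Ets2fl/fl) and Ets1/2 null cells (Ets1-/-; Ets2fl/fl) had received a lentivirus with egfp-Cre; Cre is the enzyme that cuts out a floxed stretch, here of Ets2. There were 3 arrays per group, except that the third Ets1/2 null column equalled the mean of the other arrays of that group in 20521 of 20523 probe sets (within 1e-06) and was left out, which left 2. No group had Cre without floxed Ets2, so Cre and Ets2 loss cannot be told apart. Ets1 null and Ets1/2 null cells share the same alleles and differ in the virus, whereas Ets2 null and wild-type cells differ in the virus and in the floxed alleles. The labels call the arrays biological replicates without saying whether each came from its own animal, so p-values measure the spread between these arrays.

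p53 is a transcription factor that accumulates after DNA damage and other stress and switches on genes that stop the cell cycle, repair DNA or start apoptosis. Cdkn1a encodes the cyclin-dependent kinase inhibitor p21 and Btg2 an antiproliferative regulator of mRNA turnover. Mdm2 encodes the ubiquitin ligase that degrades p53, and Ccng1 encodes cyclin G1, which acts on the same feedback loop. Trp53inp1 encodes a p53-induced nuclear protein of the stress response, Phlda3 an inhibitor of Akt signalling, and Pmaip1 the pro-apoptotic protein Noxa. Since p53 answers to DNA breaks and Cre cuts DNA, the question put to these genes was whether cells given the Cre virus differ.

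p53 binds a pair of adjoining half-sites, and the stretches below are shown because they hold such a pair in front of a gene described here. The RefSeq promoter table (GRCm38.p6) held windows for 5 of the 7 genes by symbol: Cdkn1a, which has windows at 2 starts, Btg2, Mdm2, Ccng1 and Phlda3. Each window of 300 bases was searched for the p53 consensus half-site, which reads the same on both strands, and for 2 half-sites with a spacer of up to 1 base and up to 1 mismatch in all. The 250 bases before the start are printed 5′ to 3′, with the pair of half-sites in capitals. They are the windows of the upstream Cdkn1a start (chr17:29090729-29090978, plus strand) and of Ccng1 (chr11:40755287-40755536, minus strand).
Cdkn1a: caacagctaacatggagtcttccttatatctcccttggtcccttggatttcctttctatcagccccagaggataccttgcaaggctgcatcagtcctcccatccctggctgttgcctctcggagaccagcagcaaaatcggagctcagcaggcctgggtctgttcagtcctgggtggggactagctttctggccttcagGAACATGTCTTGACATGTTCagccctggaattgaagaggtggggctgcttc
Ccng1: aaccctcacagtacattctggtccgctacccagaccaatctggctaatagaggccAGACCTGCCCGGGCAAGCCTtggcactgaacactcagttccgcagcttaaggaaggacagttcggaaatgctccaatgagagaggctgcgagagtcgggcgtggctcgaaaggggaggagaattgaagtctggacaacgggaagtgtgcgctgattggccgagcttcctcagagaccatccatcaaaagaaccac
The Cdkn1a pair spans bases 51 to 32 before that start and the Ccng1 pair bases 195 to 176 before its start, each with 1 mismatch and no spacer. Such a pair was found in 58 of all 32851 windows (0.177%). The Mdm2 window held 1 half-site without mismatch and no pair, as 8.36% of all windows held such a half-site. The windows of Btg2, Phlda3 and the downstream Cdkn1a start held neither. A match describes letters only, and no binding was measured.

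Several arrays differed in ways that touch these genes. Wild-type array 3 was low in all 13 probe sets, and values without it stand beside those it moves most. The array medians were 9.05 to 9.15 in the 9 other arrays and 8.30 and 8.29 in Ets1/2 null, so values with the median of their own array subtracted ("centred") stand beside the deposited ones. Eif2s3y, a Y-linked gene, read 9.30 to 10.23 in the 3 Ets2 null arrays and 9.37 in wild-type array 1, and 3.12 to 3.66 in the other 7, so all Ets2 null arrays were male and all Ets1 and Ets1/2 null arrays female. Ets1 (brightest probe set) was at 8.31, 8.76 and 9.17 on the Ets1 null arrays, at 9.84 to 10.26 on wild-type, 9.50 to 9.88 on Ets2 null and 10.02 and 10.29 on Ets1/2 null arrays, so by that probe set the Ets1/2 null arrays went against their label. Its 3 other probe sets disagreed: 1422027_a_at was lower on Ets1/2 null (6.49 and 7.05) than on Ets1 null (7.72, 8.57 and 8.51) and wild-type arrays (8.69 to 8.83), 1422028_a_at was at 7.40 and 7.98 against 6.95 to 7.94 on Ets1 null arrays, and 1426725_s_at was at 9.81 on both against 8.13 to 8.92. Ets2 (brighter probe set) was at 9.63, 9.35 and 10.13 on Ets2 null against 9.72, 10.01 and 10.70 on wild-type arrays, and at 11.02 and 9.63 on Ets1/2 null against 10.28, 10.37 and 10.54 on Ets1 null arrays, so Ets1/2 null array 1 had the highest value of all 11. The place of these probes within the genes was not known here, and the groups are called by their labels throughout. Of endothelial markers 5 of 14 were on the table, while Pecam1, Cdh5, Tek and Vwf were not analysed here. The mean log2 level of those 5 was 8.13 to 9.44 on wild-type, 7.66 to 7.88 on Ets1 null, 8.55 to 9.18 on Ets2 null and 7.12 to 7.50 on Ets1/2 null arrays. Centred, it was -0.98 to 0.40 on wild-type, -1.49 to -1.26 on Ets1 null and -0.53 to 0.13 on Ets2 null arrays. On Ets1/2 null arrays it was -1.17 and -0.80, so they lay below the Ets1 null arrays as deposited and above them centred. As deposited and over all arrays, 8 of 8 fibroblast markers had mean levels of 9.26 to 10.88, 6 of 9 smooth muscle and pericyte markers 8.19 to 10.30, and 6 of 8 leukocyte markers 6.70 to 7.75. In such bulk samples, fewer cells of a type and less RNA per cell cannot be told apart.

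Whether cells given the Cre virus differed had no single answer over the pair of comparisons. In Ets2 null cells every one of the 13 probe sets had a mean above wild type, as 9921 of all 20523 did, and none passed the test. Leaving out wild-type array 3, the lowest wild-type array in all 13, left 10 above wild type. By the brightest probe set, 6 of the 7 genes stayed above, against 50.8% of all genes. The median over the 7 genes then went from 1.14 to 0.41. The arrays labelled Ets1/2 null were called lower than Ets1 null arrays in the only Phlda3 probe set and in the dimmer Trp53inp1 probe set, as deposited and centred. In all, 4 of 13 were lower as deposited, against 46% of all probe sets, and 2 of 13 centred, against 13.7%. These shares are below or near those of all probe sets. The brightest probe sets of the 6 genes other than Phlda3 did not pass. Averaged over both pairs of groups, 2 of 13 probe sets were lower (against 38.5% of all probe sets) and 0 higher (2.85%). Centred, 0 were called in either direction (11.9% lower and 17.5% higher among all), with 1 at an unadjusted p under 0.05 by limma. Without wild-type array 3 the centred average was called lower in 2 of 13 (12.4% of all), Phlda3 at -1.23 ± 0.14 (adjusted p = 0.00128) and the dimmer Trp53inp1 probe set at -0.69 ± 0.16 (adjusted p = 0.0166). It was called higher in 1 (18.4% of all), the brighter Trp53inp1 probe set at 1.08 ± 0.31 (adjusted p = 0.0336), so the probe sets of that gene went opposite ways. Wild-type array 3 was singled out by these same probe sets, so calls gained by leaving it out are no further support.

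**Figure D1:**
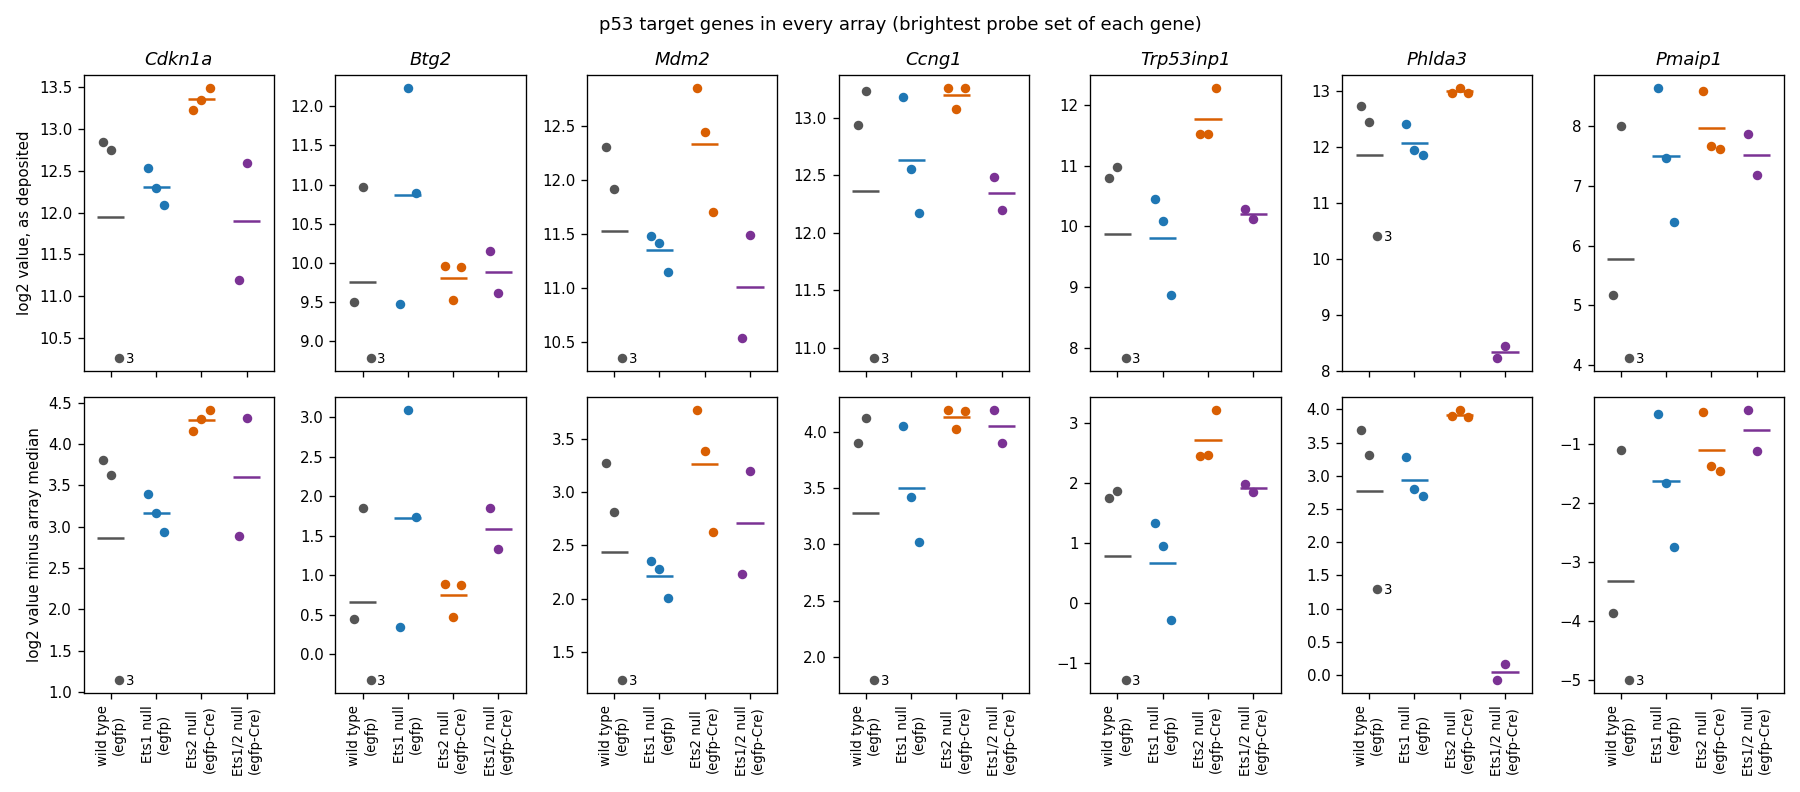
Log2 values of the 7 genes (brightest probe set) in each of the 11 arrays, as deposited (upper row) and minus the array median (lower row). Points are arrays and lines group means; the number 3 marks wild-type array 3, which lies below the other wild-type arrays in every panel, and Phlda3 is low in both Ets1/2 null arrays (8.23 and 8.45).

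Cdkn1a (brighter probe set, 1424638_at) was at 12.85, 12.75 and 10.26 on the wild-type arrays 1 to 3, at 12.53, 12.30 and 12.09 on Ets1 null, at 13.23, 13.35 and 13.49 on Ets2 null, and at 11.19 and 12.60 on Ets1/2 null arrays. All Ets2 null arrays thus lay above all arrays of the other groups, and the means of those other groups, 12.30, 11.96 and 11.89, did not differ beyond their spread. Centred, the same arrays were at 3.81, 3.63 and 1.15, then 3.40, 3.16 and 2.94, then 4.16, 4.30 and 4.41, then 2.89 and 4.31, so that Ets1/2 null array 2 joined the Ets2 null arrays. Against wild type the Ets2 null mean was higher by 1.40 ± 0.63 (SE, n = 3 and 3, adjusted p = 0.249), and by 0.56 ± 0.36 without wild-type array 3 (adjusted p = 0.436). Against Ets1 null the Ets1/2 null difference was -0.41 ± 0.71 (n = 2 and 3, adjusted p = 0.663), turning to 0.43 ± 0.72 when centred (adjusted p = 0.668). The second Cdkn1a probe set had 1.52 ± 0.74 (adjusted p = 0.277) and -0.82 ± 0.82 (adjusted p = 0.44) in these comparisons.

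Btg2, the other arrest gene, was spread mainly within groups. Its brighter probe set was at 9.50, 10.97 and 8.79 on wild-type, 9.48, 12.23 and 10.89 on Ets1 null, 9.96, 9.53 and 9.95 on Ets2 null, and 10.15 and 9.62 on Ets1/2 null arrays. Centred, these were 0.45, 1.85 and -0.32, then 0.35, 3.09 and 1.74, then 0.89, 0.47 and 0.88, then 1.85 and 1.33. The highest value was that of Ets1 null array 2, and the groups overlapped. The difference was 0.06 ± 0.69 in Ets2 null against wild type (adjusted p = 0.971), turning to -0.42 ± 0.73 without wild-type array 3, and -0.98 ± 0.78 in Ets1/2 null against Ets1 null (adjusted p = 0.327; centred -0.14 ± 0.77). Its dimmer probe set had a mean of 8.63 ± 0.52 (SD, n = 2) on the Ets1/2 null arrays, both below all 3 Ets1 null arrays (9.41, 12.63 and 11.14), and had -2.43 ± 0.90, just outside the threshold (adjusted p = 0.0503; centred -1.58 ± 0.90, adjusted p = 0.197).

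Of the feedback genes, Mdm2 (brighter probe set) was at 12.31, 11.92 and 10.35 on wild-type, 11.48, 11.42 and 11.15 on Ets1 null, 12.85, 12.44 and 11.70 on Ets2 null, and 10.53 and 11.49 on Ets1/2 null arrays. Centred, these were 3.27, 2.81 and 1.24, then 2.35, 2.28 and 2.01, then 3.77, 3.39 and 2.63, then 2.23 and 3.20. Ets2 null had the highest mean (12.33 as deposited) but overlapped wild type, and both scalings placed the lowest value of the first 9 on wild-type array 3. The difference was 0.80 ± 0.50 in Ets2 null against wild type (adjusted p = 0.393), 0.22 ± 0.37 without wild-type array 3 (adjusted p = 0.798), and -0.34 ± 0.56 in Ets1/2 null against Ets1 null (adjusted p = 0.647; centred 0.50 ± 0.57, adjusted p = 0.525). The dimmer Mdm2 probe set was at 8.64 and 9.72 on the Ets1/2 null arrays, against 11.14, 11.09 and 10.76 on the Ets1 null arrays. It fell by 1.82 ± 0.64 as deposited (adjusted p = 0.041) and did not pass centred (-0.97 ± 0.65, adjusted p = 0.271).

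Ccng1, whose promoter stretch is printed above, was at 12.94, 13.24 and 10.91 on wild-type, 13.18, 12.56 and 12.17 on Ets1 null, 13.26, 13.08 and 13.26 on Ets2 null, and 12.49 and 12.20 on Ets1/2 null arrays by its brightest probe set. Centred, these were 3.90, 4.12 and 1.80, then 4.05, 3.42 and 3.02, then 4.19, 4.02 and 4.18, then 4.19 and 3.90. Apart from wild-type array 3 the deposited values ran from 12.17 to 13.26, and the Ets2 null arrays overlapped wild type. Ets2 null was above wild type by 0.83 ± 0.53 (adjusted p = 0.404) and by 0.11 ± 0.27 without wild-type array 3 (adjusted p = 0.867). Between Ets1/2 null and Ets1 null this probe set had -0.29 ± 0.60 (adjusted p = 0.713; centred 0.55 ± 0.60). Of its other probe sets, 1450016_at fell by 2.00 ± 0.66 (adjusted p = 0.0315), from 12.97, 12.42 and 11.97 to 10.76 and 10.14, and did not pass centred (-1.15 ± 0.66, adjusted p = 0.204). The remaining one, 1450017_at, had -1.06 ± 0.65 (adjusted p = 0.206).

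Among the stress and apoptosis genes, Trp53inp1 (brighter probe set) was at 10.80, 10.98 and 7.83 on wild-type, 10.46, 10.09 and 8.86 on Ets1 null, 11.53, 11.53 and 12.28 on Ets2 null, and 10.28 and 10.13 on Ets1/2 null arrays. Centred, these were 1.75, 1.86 and -1.28, then 1.33, 0.95 and -0.29, then 2.45, 2.47 and 3.21, then 1.98 and 1.84. Every Ets2 null array was above every other array on both scales. The difference from wild type was 1.91 ± 0.77 (adjusted p = 0.207), or 0.89 ± 0.44 without wild-type array 3 (adjusted p = 0.317). The Ets1/2 null arrays lay between those of Ets1 null as deposited and above them centred (0.40 ± 0.86, adjusted p = 0.726; centred 1.25 ± 0.87, adjusted p = 0.29). The dimmer probe set, 1416927_at, went the other way. It was at 4.93 and 5.03 on the Ets1/2 null arrays against 7.94, 7.73 and 7.23 on the Ets1 null arrays, and fell by 2.65 ± 0.45 (adjusted p = 0.00114; centred -1.81 ± 0.46, adjusted p = 0.0143). Both Ets1/2 null values lie under 6.5, so the size of that fall is poorly measured.

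Phlda3 was at 12.73, 12.44 and 10.41 on wild-type, 12.42, 11.94 and 11.85 on Ets1 null, 12.97, 13.05 and 12.96 on Ets2 null, and 8.23 and 8.45 on Ets1/2 null arrays. Centred, these were 3.69, 3.32 and 1.29, then 3.29, 2.80 and 2.70, then 3.90, 3.99 and 3.88, then -0.07 and 0.16. Its Ets2 null arrays were the highest of all 11, and its Ets1/2 null arrays the lowest, on both scales. Against Ets1 null it fell in Ets1/2 null by 3.73 ± 0.57 (n = 2 and 3, adjusted p = 0.00063), which is 13.2-fold, and centred values gave -2.88 ± 0.58 (adjusted p = 0.00535), which is 7.38-fold. In Ets2 null it had 1.14 ± 0.51 against wild type (adjusted p = 0.244) and 0.41 ± 0.19 without wild-type array 3 (adjusted p = 0.292). The Cre difference in Ets1 null cells minus that in cells with Ets1 was -4.86 ± 0.76 (adjusted p = 0.00134; centred -4.04 ± 0.77, adjusted p = 0.00826). The average over both pairs, -1.30 ± 0.38 (adjusted p = 0.0231; centred -0.86 ± 0.39, adjusted p = 0.122), therefore joins differences of opposite sign. Its adjusted p was 0.0502 without wild-type array 2, and 0.0685 and 0.0526 without Ets1/2 null array 1 or 2. No other probe set on the table bears its symbol, so its fall in Ets1/2 null could not be set against a second probe set. In those arrays probe sets of one gene often disagreed, as given below.

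Pmaip1 was dim and variable, at 5.18, 8.01 and 4.12 on wild-type, 8.64, 7.47 and 6.40 on Ets1 null, 8.60, 7.68 and 7.62 on Ets2 null, and 7.87 and 7.18 on Ets1/2 null arrays. Centred, these were -3.86, -1.10 and -4.99, then -0.49, -1.67 and -2.75, then -0.47, -1.38 and -1.46, then -0.43 and -1.12. Wild-type arrays 1 and 3 were the lowest of all, and wild-type array 2 lay within the range of the Ets1 null and Ets2 null arrays. The difference was 2.19 ± 0.92 in Ets2 null against wild type (adjusted p = 0.22), 1.73 ± 0.92 in Ets1 null against wild type without Cre in either group (adjusted p = 0.597), and 0.02 ± 1.03 in Ets1/2 null against Ets1 null (adjusted p = 0.989; centred 0.86 ± 1.02). Without wild-type array 3 the differences from wild type were 1.37 ± 0.87 for Ets2 null (adjusted p = 0.436) and 0.91 ± 0.87 for Ets1 null (adjusted p = 0.728), and without wild-type array 2 the former was 3.31.

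Counted over all 13 probe sets, Ets2 null against wild type called 0, against 0.58% of all probe sets, and 3 had an unadjusted p under 0.05 by limma (Pmaip1 and both of Trp53inp1), as 20.7% of all probe sets did. Every Ets2 null array lay above every wild-type array in 5 of them, both of Cdkn1a, both of Trp53inp1 and that of Phlda3, where 13.6% of all probe sets did so. All 3 Ets2 null arrays were male and only 1 wild-type array was. With a term for male arrays, which rests on that array, the differences were 0.50 ± 0.84 for Cdkn1a, 0.26 ± 0.62 for Phlda3, 0.98 ± 1.06 for Trp53inp1 and 0.02 ± 0.64 for Mdm2 (adjusted p from 0.805 to 0.995).

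Between Ets1/2 null and Ets1 null, where all arrays were female, 4 of 13 probe sets were lower (30.8%), against 46% of all probe sets, and 0 were higher, against 1.76%. In centred values 2 of 13 were lower (15.4%), against 13.7%, and 0 higher, against 21.8%; these shares of lower calls are below or near those of all probe sets. Groups did not overlap in 6 probe sets as deposited, all lower, against 62.7% of all. The Cre by Ets1 interaction was called in 4 of 13 probe sets, all negative, against 34% of all, and in 2 centred, against 9.36%. Without Cre in either group, Ets1 null against wild type called 0 of 13 and had 0 at an unadjusted p under 0.05 by limma (0.00487% of all probe sets were called).

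**Figure D2:**
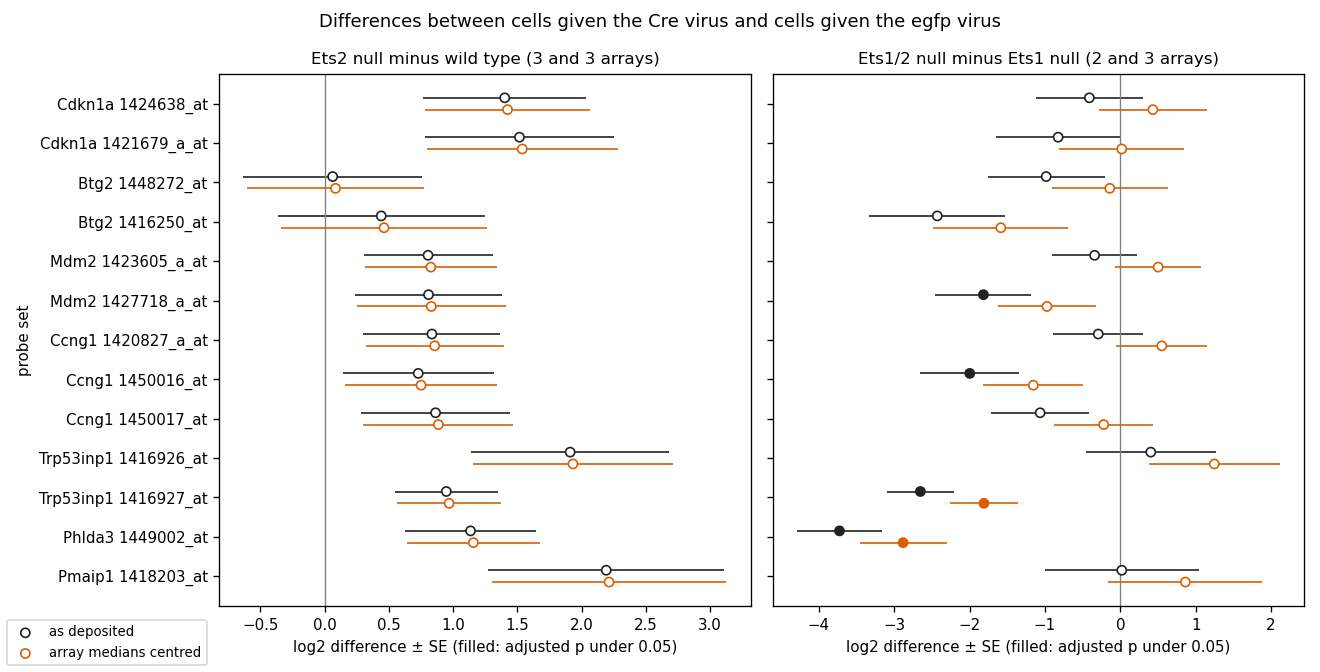
Log2 difference with its SE for each of the 13 probe sets in both comparisons of cells given the Cre virus with cells given the egfp virus, as deposited (black) and centred (orange). All 13 points of Ets2 null lie above 0, where 9921 of all 20523 probe sets lay as deposited, and none is filled. In Ets1/2 null the filled points are Phlda3, the dimmer probe sets of Trp53inp1 and Mdm2, and 1 of the Ccng1 probe sets.

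Against Ets2 null, with Cre in both groups, Ets1/2 null was lower in 4 of 13 probe sets as deposited (45.7% of all) and in 3 centred (14.9% of all): Phlda3 (centred -3.88 ± 0.58), 1416927_at of Trp53inp1 (centred -3.01 ± 0.46) and 1427718_a_at of Mdm2 (centred -2.13 ± 0.65). Against wild type it was lower in 3 as deposited (46% of all) and 2 centred (14.4% of all). Without wild-type array 3 these counts were 5 (43.6% of all) and 4 (14.6% of all), with both dimmer Ccng1 probe sets added as deposited, and 1450016_at of Ccng1 and 1427718_a_at of Mdm2 added centred. That array was singled out as the lowest in these same probe sets, so leaving it out raises the wild-type mean. For 1450016_at of Ccng1 the difference as deposited went from -1.71 to -2.51. The added calls are therefore no further support. With all 11 arrays, Phlda3 was lower than in Ets2 null and than in wild type, by 3.52 ± 0.57 against wild type as deposited (adjusted p = 0.00088).

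Probe sets of the same gene moved together in the 9 other arrays and apart in Ets1/2 null. The gap between the Mdm2 probe sets was 0.11 to 0.39 in the 9 arrays and 1.89 and 1.77 in Ets1/2 null. For Trp53inp1 it was 1.08 to 3.24 against 5.35 and 5.10, and between the Ccng1 probe sets 1420827_a_at and 1450016_at it was 0.11 to 0.51 against 1.72 and 2.06. For Cdkn1a 1 of the Ets1/2 null arrays stayed inside (0.67 to 1.25 against 1.73 and 0.93). Over all 4785 genes with several probe sets, both Ets1/2 null arrays lay outside the range of the other 9 in 59.1%. In the 9 arrays, Pearson's r between probe sets of a gene was 0.981 to 0.997 (a description, since the points share their arrays). The lower calls of Mdm2, Ccng1 and Trp53inp1 against Ets1 null each came from 1 of their probe sets. Phlda3 had no second probe set, so whether its transcript fell as its probe set did was not tested.

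**Figure D3:**
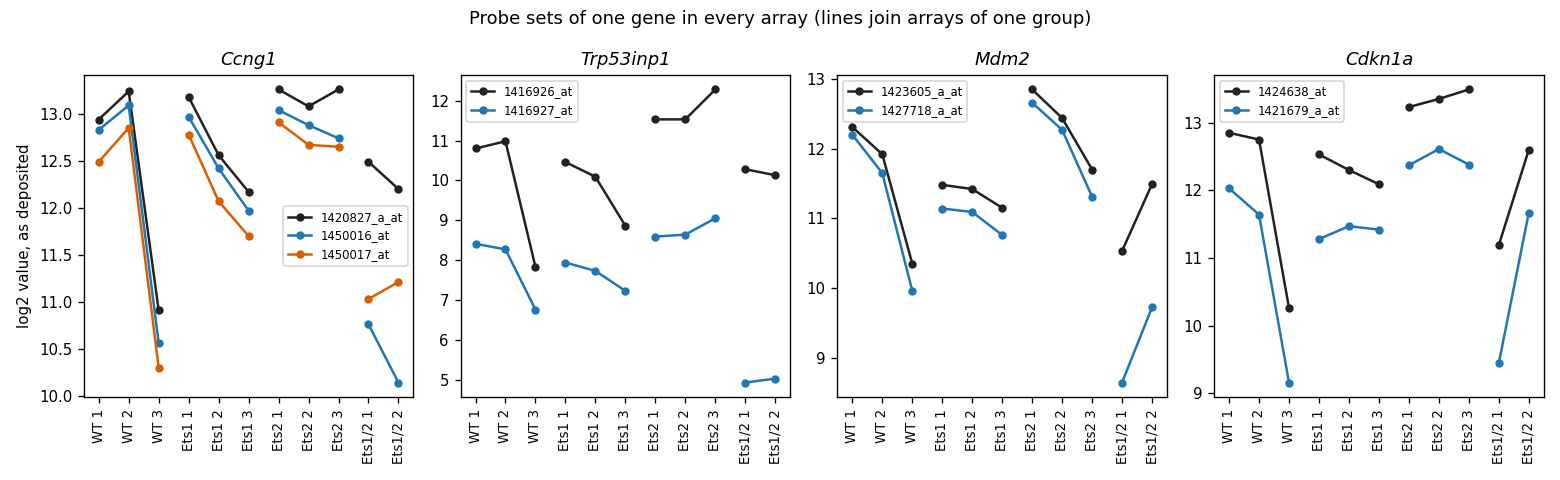
Log2 values as deposited of each probe set of Ccng1, Trp53inp1, Mdm2 and Cdkn1a in the 11 arrays, with lines joining the arrays of one group. The probe sets rise and fall together in wild type, Ets1 null and Ets2 null, though the Trp53inp1 gap varies there from 1.08 to 3.24. They lie further apart in both Ets1/2 null arrays for Ccng1, Trp53inp1 and Mdm2 (gap of 1.89 and 1.77 for Mdm2).

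The widest common movement of these genes was within the wild-type group. Wild-type array 3 was the lowest of the 9 arrays outside Ets1/2 null in 13 of 13 probe sets, whereas it was the lowest in 15.8% of all probe sets. It lay below the mean of wild-type arrays 1 and 2 by a median of 2.18 over the 7 genes, from 1.44 for the brighter Btg2 probe set to 3.06 for the brighter Trp53inp1 probe set, while the median over all 11015 genes was 0.08 in the other direction. From 0.546% to 3.24% of all probe sets lay further down than each of these 13. Among the wild-type arrays it was the one with the most cell cycle transcripts (median deviation 0.74 against 0.61 and 0.46, centred) and the highest mean of 4 of 7 epithelial and mesothelial markers (9.78 against 7.28 and 8.34). It also had the lowest mean of the endothelial markers among them (8.13 against 9.44 and 8.66) and the highest of the leukocyte markers (7.75 against 7.22 and 7.44). The Ets1 null arrays had 9.84 to 10.25 for the epithelial and mesothelial markers, 7.66 to 7.88 for the endothelial ones and 7.48 to 7.58 for the leukocyte ones, and median deviations of -0.07, -0.29 and -0.64 for the 7 genes (centred), against -1.91 on wild-type array 3. The part of these markers in the result was not tested. Without this array the Ets2 null minus wild-type median over the 7 genes went from 1.14 to 0.41. Above 0 stayed 10 of 13 probe sets and 6 of 7 genes (50.8% of all genes), and 0 probe sets were called (0.658% of all were called higher). Without it, Ets1/2 null was called lower than Ets2 null in 10 of 13 probe sets, against 47.9% of all, and centred in 5, against 16.1%. The latter were the single Phlda3 probe set, both dimmer probe sets of Ccng1, and the dimmer ones of Mdm2 and Trp53inp1. Wild-type array 3 is in neither of those groups, so the differences stayed the same and only the error, shared over all groups, shrank. The brightest Ccng1 probe set had -0.86 ± 0.60 with the array and -0.86 ± 0.27 without it. The array was singled out by these same probe sets, so the added calls say nothing further about those groups.

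**Figure D4:**
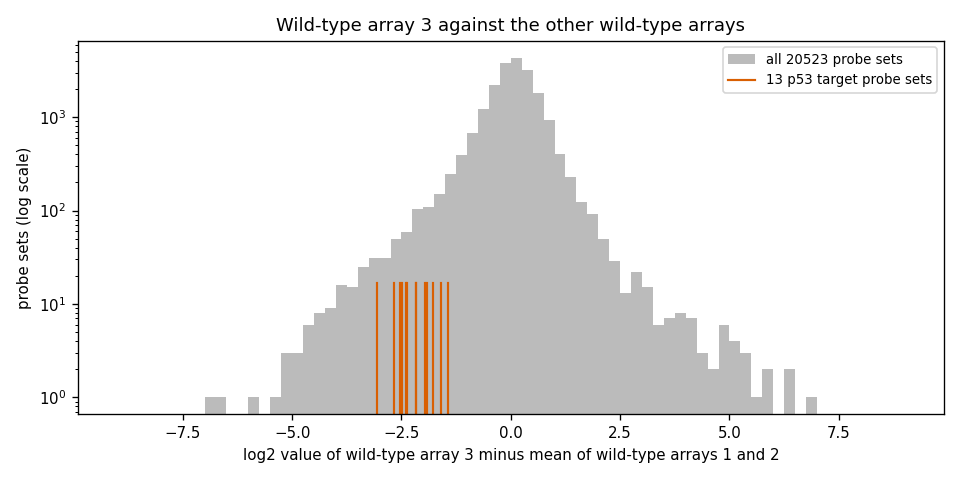
Histogram (log scale) of the log2 value of wild-type array 3 minus the mean of wild-type arrays 1 and 2 for all 20523 probe sets, with the 13 probe sets of the p53 target genes as orange lines. All 13 lie to the left of 0, between -3.06 and -1.44.

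The further p53 targets shared this pattern in part. Of 47 such genes on the table, wild-type array 3 was the lowest of the 9 arrays in 21 (44.7%), against 13.6% of all genes: 6 of 17 targets of arrest and repair, 8 of 16 of apoptosis and 7 of 14 of metabolism and other roles. Zmat3, an RNA-binding regulator of growth arrest, and the death receptor gene Fas, were both chosen after their values were seen. Zmat3 was at 9.37 against 11.82 and 12.14 on the other wild-type arrays, and Fas at 6.11 against 9.43 and 8.48. Of p53 regulators it was the lowest in 2 of 12 (Mdm4 and Ppm1d), and of cell cycle genes in 0 of 23.

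In Ets2 null against wild type, 0 of these 47 targets were called (0.508% of genes were called in either direction), and 12 had an unadjusted p under 0.05 by limma (25.5%, against 19% of genes). Of the 47, 31 lay above 0, as did 5244 of all 11015 genes. Without wild-type array 3, 0 were called, 8 had an unadjusted p under 0.05 (17%, against 17.5% of genes) and 25 lay above 0 (53.2%, against 50.8% of genes). The smallest p belonged to Trp53i13 (0.70 ± 0.18, adjusted p = 0.0916) and Trp53i11 (0.95 ± 0.25, adjusted p = 0.0944), and the arrest gene Rprm had 1.49 ± 0.57 (adjusted p = 0.193), or 0.93 ± 0.52 without wild-type array 3. Bid, the gene of a pro-apoptotic BH3-only protein, had -1.63 ± 0.55 (adjusted p = 0.155). Abhd4 of the metabolic list had 1.04 ± 0.30 (adjusted p = 0.112). The list medians were 0.31 for arrest and repair, 0.28 for apoptosis and 0.35 for metabolism and other roles, beside -0.02 over all genes. Without wild-type array 3 they were 0.033, -0.013 and 0.080, beside 0.0070.

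Against Ets1 null, 18 of the 47 targets were lower in Ets1/2 null (38.3%), against 43.2% of genes, and 1 higher (2.13%), against 1.81%. Centred, 5 were lower (10.6%), against 10.3%, and 6 higher (12.8%), against 22.4%. Gtse1, which restrains p53 in G2 phase, fell by 2.90 ± 0.47 (adjusted p = 0.000908, centred -2.05), and the pro-apoptotic channel gene Bak1 fell by 2.29 ± 0.27 (adjusted p = 0.000141, centred -1.45). Trp53i13 fell by 1.90 ± 0.20 (adjusted p = 6.94e-05, centred -1.06). Ccng2 is a relative of Ccng1 that is better known as a FoxO target. Its brighter probe set rose by 1.65 ± 0.29 (adjusted p = 0.00147, centred 2.50). Its dimmer probe set did not rise, with means of 10.21 on Ets1 null and 9.34 on Ets1/2 null arrays (centred 1.07 and 1.05). Sesn2 (-1.54 ± 0.31), Pidd1 (-1.20 ± 0.14), Tigar (-0.93 ± 0.15) and Cd82 (-2.13 ± 0.51) were called lower as deposited only, with centred adjusted p from 0.0663 to 0.693. Apoptosis targets had 10 of 16 lower as deposited and 4 centred, with medians of -1.23 and -0.39 beside -0.59 and 0.25 over all genes.

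Of the p53 regulators 12 of 17 were on the table, and Trp53 itself was not analysed here. Mdm4, the relative of Mdm2 that holds p53 inactive, was at 9.74, 9.30 and 8.63 on wild-type, 9.92, 11.69 and 11.32 on Ets1 null, 9.48, 9.56 and 9.98 on Ets2 null, and 7.80 and 8.97 on Ets1/2 null arrays (brightest probe set). It fell by 2.59 ± 0.55 in Ets1/2 null against Ets1 null (adjusted p = 0.00399; centred -1.75 ± 0.55, adjusted p = 0.0357), and Ets1 null arrays 2 and 3 were the highest of all 11. In that comparison 3 of 12 regulators were lower (43.2% of genes) and 1 higher (1.81% of genes) as deposited, and 1 lower (10.3% of genes) and 3 higher (22.4% of genes) centred. Ets2 null against wild type called 0 of 12, with 1 at an unadjusted p under 0.05 by limma, Ppm1d, the gene of a p53-induced phosphatase that dampens p53 (0.38 ± 0.15, adjusted p = 0.208, or 0.21 ± 0.12 without wild-type array 3).

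Cell cycle genes, which p21 and the DREAM complex repress, were low on 2 single arrays. The median deviation of 23 genes was -3.81 in Ets2 null array 3 and -1.20 in Ets1/2 null array 2 (centred), and lay between 0.12 and 1.07 in the other 9 arrays. Mki67, the proliferation marker, was at 12.37, 12.26 and 6.61 on the Ets2 null arrays, while Cdkn1a in these arrays was 13.23, 13.35 and 13.49, and its lowest wild-type value, 10.26, stood beside a Mki67 value of 12.34. Against Ets1 null, 6 of 23 were lower in Ets1/2 null (43.2% of genes) and 1 centred (10.3% of genes). The latter was E2f1, an activator of S-phase entry, by its brighter probe set (-2.25 ± 0.31, adjusted p = 0.000372, centred -1.41). The dimmer E2f1 probe set had means of 9.40 on Ets1 null and 8.62 on Ets1/2 null arrays. Centred, these were 0.26 and 0.32, so it did not fall on that scale. Ets2 null against wild type called 0 of 23, with 3 at an unadjusted p under 0.05 by limma (0 without wild-type array 3), among them Mcm5 at -2.18 ± 0.85 (adjusted p = 0.199).

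**Figure D5:**
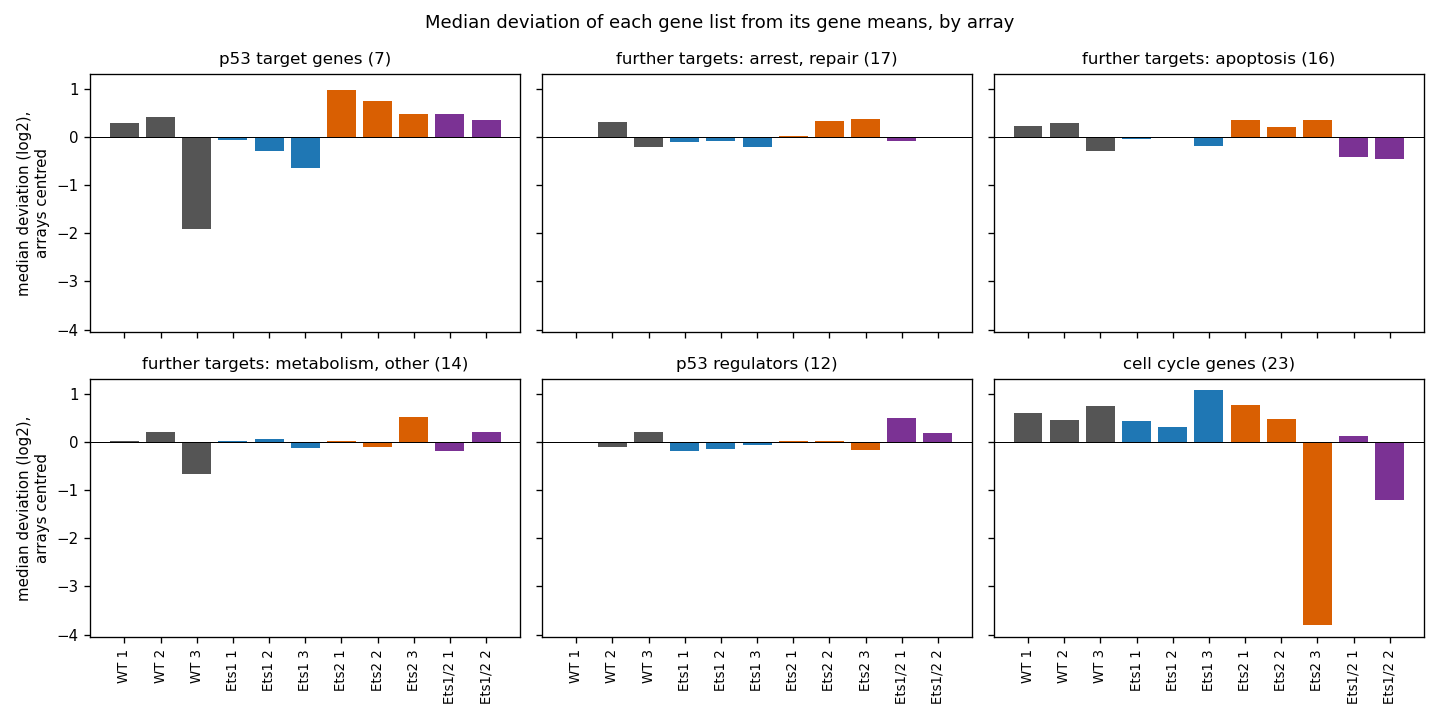
Median deviation (log2, centred arrays) of each gene list from its gene means over the 11 arrays, one bar per array, coloured by group as wild type (grey), Ets1 null (blue), Ets2 null (orange) and Ets1/2 null (purple). The 7 p53 target genes are lowest in wild-type array 3 (-1.91), and the cell cycle genes in Ets2 null array 3 (-3.81).

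Within the group of 7, Cdkn1a, Ccng1, Mdm2 and Trp53inp1 ran alike over the 11 centred arrays, with Pearson's r from 0.748 (Ccng1 and Mdm2) to 0.924 (Ccng1 and Trp53inp1). These are descriptions over arrays that share wild-type array 3. Pmaip1 had r from 0.473 to 0.811 with those 4 genes, Phlda3 from 0.275 to 0.433 and Btg2 from -0.011 to 0.235. Over all 11015 genes, those most like Cdkn1a were Exoc4 (0.969), Mbtps1 (0.960) and Ercc5 (0.946), the last a nucleotide excision repair gene on the arrest and repair list. Those most like Ccng1 were Zfp991 (0.967), Sulf2 and the p53-induced receptor gene Eda2r (0.941 each). The nearest to Mdm2 were Meak7 (0.955), Anxa5 (0.912) and Ptprg (0.910), and to Trp53inp1 Rnf169 (0.982), Ccnd2 (0.946) and Ttc12 (0.944). Phlda3 was nearest to Dnm2 (0.983), Pomt2 (0.979) and Ext2 (0.975), Btg2 to Pgf (0.918), Acpp (0.914) and Znhit6 (0.891), and Pmaip1 to Tfpi (0.885), Scfd1 (0.873) and Itpkb (0.871).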

How the data were processed

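Total RNA was measured on Affymetrix mouse arrays. The authors deposited log2 values per probe set, made with RMA per the submitters' processing notes. Its version and any filter or joint normalization were not given in the sources used here. Probe sets were named from the probe table (18824 with 1 symbol, 549 with several, 1150 with none). For counts of genes, the brightest probe set by mean stood for each of 11015 genes. The column that averages other arrays was left out.

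limma 3.58.1 in R 4.3.3 (lmFit, eBayes, two-sided) fitted a mean per group over all 20523 probe sets, with Benjamini-Hochberg adjustment, and a call is an adjusted p under 0.05. The fit was tested on simulated data. Errors are limma's standard errors. Arrays give no counts, and their number limits the precision. The members, lists and named genes were chosen with earlier results of these data known. Named were all members, and up to 3 genes per further list with the smallest p in each Cre comparison. The alternatives were other scalings, filters, probe set rules, covariates, variance models and left-out arrays. Tables were made with pandas 2.3.3, and figures with matplotlib 3.10.9.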

Additional observations from a re-analysis of the deposited data

Results flagged for a closer look

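The Cre difference in Ets1 null cells (Ets1/2 null minus Ets1 null) differed from that in cells with Ets1 (Ets2 null minus wild type) by limma's interaction test for 4 of 13 probe sets (30.8%), all negative, against 34% of all probe sets, and centred for 2 (15.4%), against 9.36%. The interaction was -4.86 for Phlda3, -3.60 for 1416927_at of Trp53inp1, -2.73 for 1450016_at of Ccng1 and -2.62 for 1427718_a_at of Mdm2, with adjusted p of 0.00134, 0.00188, 0.0383 and 0.0396. Centred, the values were -4.04, -2.78, -1.90 and -1.80, with adjusted p of 0.00826, 0.0146, 0.162 and 0.174. For Trp53inp1, Ccng1 and Mdm2 the brightest probe set was not called, at -1.51 (adjusted p = 0.342), -1.13 (adjusted p = 0.305) and -1.15 (adjusted p = 0.269). Ets2 null and wild-type cells also differ in floxed alleles, and Ets2 null arrays were all male while wild-type arrays were of both sexes. The interaction cannot be told apart from these differences.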

How the results depend on the processing

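Counts here are of the 7 genes, each by its brightest probe set. Ets2 null minus wild type stayed at 0, Ets1 null minus wild type at 0 and Ets1/2 null minus Ets1 null at 1 (Phlda3) under each alternative run. The Cre average had 1 called (Phlda3), 0 with centring or quantile normalization, and 2 with centring and wild-type array 3 left out (a setting chosen after seeing the data). It had 1 without each single array of the groups with 3 arrays. Phlda3 did not pass without wild-type array 2, so the 1 called there was another gene. With each of the 11 arrays left out in turn, the Phlda3 average ran from -1.66 to -1.08. The Cre by Ets1 interaction had 1, 2 with the mean of probe sets, and 1 to 2 without single arrays (2 without wild-type array 2). Ets1/2 null minus Ets2 null had 1, 3 with the mean of probe sets, 2 with array weights, 4 with only the groups compared, and 1 to 5 without single arrays (5 without wild-type array 3, 2 without Ets2 null array 3). Wild-type array 3 is in neither of these groups, so leaving it out changed only the shared error and not the differences. Ets1/2 null minus wild type had 1, and 1 to 2 without single arrays (2 without wild-type array 2).

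The replicate numbers did not pair the arrays: deviations of same-numbered arrays correlated at -0.306 to 0.0998, none of 15 above 0.1. With the replicate block Ets1/2 null minus Ets2 null had 2 genes called in place of 1, Pmaip1 in Ets1/2 null minus Ets1 null had -0.50 and Trp53inp1 -0.0079.

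The direction of values that were not called often changed. In Ets2 null minus wild type, Btg2 had -0.58 with array weights, -0.41 centred without wild-type array 3, and -0.42 to 0.67 without single arrays. In Ets1/2 null minus Ets1 null, centring (with or without wild-type array 3) gave 0.55 for Ccng1, 0.43 for Cdkn1a and 0.50 for Mdm2, and quantile normalization 0.21, 0.10 and 0.24. The mean of probe sets gave -1.12 for Trp53inp1. Without single arrays the ranges were -1.12 to 0.30 for Cdkn1a, -0.82 to 0.14 for Mdm2, -0.53 to 0.59 for Pmaip1 and -0.067 to 0.73 for Trp53inp1. In the Cre average, Ccng1 had -0.15 with the mean of probe sets, -0.018 with a term for male arrays, -0.0029 with array weights and -0.092 to 0.49 without single arrays, and Mdm2 had -0.14, -0.16 with the term, and -0.063 to 0.47 without single arrays. The causes were not tested. Where an Ets1/2 null array was left out, the lone one was assumed to vary like the other groups.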
